A study of Bos taurus with 21 samples.

Results

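The sarcomeric myosin heavy chain genes *MYH1*, *MYH2*, *MYH3* and *MYH7* were followed in the muscle of bovine foetuses of 2 breeds between 110 and 260 days post conception (dpc). Every non-control probe whose transcript accession mapped to 1 of these 4 genes in the cattle annotation was taken, which gave 18 of the 43653 probes on the array. *MYH1* (NM_174117) had 6 probes, *MYH2* (NM_001166227) had 4, *MYH3* (NM_001101835) had 2 and *MYH7* (NM_174727) had 6. In the annotation of assembly ARS-UCD2.0, *MYH13*, *MYH8*, *MYH4*, *MYH1*, *MYH2* and *MYH3* follow one another on 1 chromosome, and *MYH7* lies beside *MYH6* on another. The array was designed on an older assembly, so no probe position is given. The genes are close in sequence, each probe is therefore described on its own, and which transcripts a probe binds was not tested.

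The samples were 10 Blonde Aquitaine (BA) and 11 Charolais (CH) foetuses, both French beef breeds. At 110, 180, 210 and 260 dpc the BA groups held 3, 2, 3 and 2 animals and the CH groups 2, 3, 3 and 3, each on its own single-colour array, so p-values rest on few animals. They had 2 sires in each breed. The BA foetuses were 3 males and 7 females, the CH foetuses 5 males and 6 females. No treatment was given, and the BA foetuses were not genotyped for the myostatin mutation known in that breed. Both BA foetuses at 180 dpc had 1 sire, both at 260 dpc the other, and all 4 were female, while the 3 CH foetuses at 210 dpc shared a sire. Both CH foetuses at 110 dpc were female, and BA at 110 dpc and CH at 260 dpc each held 2 males and 1 female. At 110 and 260 dpc the breeds therefore differed in sex as well. The labels name the *Longissimus thoracis* and the paper the *m.* *Semitendinosus*.

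Myosin heavy chains form the motor of the thick filament, and a muscle fibre is typed by the one it makes. *MYH3* encodes the embryonic chain, the form of the first fibres of the foetus. *MYH7* encodes the slow chain of type I fibres, also used in the heart, *MYH2* the fast oxidative IIa chain and *MYH1* the fast IIx chain. During late gestation cattle fibres exchange the developmental chains for the slow and fast adult forms, so that a calf can stand and walk soon after birth.

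Levels are given as normalised log2 intensity, in which 0 is close to the median probe of a typical array, and 1 unit is a doubling. A level is compared with other stages of the same probe, never with the level of another probe. Of the 378 values of the 18 probes, 368 were well above background and 0 were saturated. The other 10 all belonged to the *MYH1* probe A_73_P098717. The number of probes well above background was 29027 on the array with the fewest and 34507 on that with the most. Skeletal muscle markers were well above background on every array and their summed normalised intensity on the linear scale rose from a range of 1710 to 2380 at 110 dpc to one of 8180 to 10600 at 260 dpc, while of 3 heart markers measured *NPPA* and *NPPB* were not well above background on any array and *TNNI3* was on all 21. In tissue RNA, more fibres and more RNA per fibre cannot be told apart.

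Between 110 and 260 dpc all 18 probes changed, with both breeds averaged. The 16 probes of *MYH1*, *MYH2* and *MYH7* rose, against 21.2% of all probes that rose, and the 2 probes of *MYH3* fell, against 22.7% of all probes. The median change of the 18 probes was 3.23 on the log2 scale and that of all probes 0.09. The rises ranged from 1.78 to 2.93 for *MYH7*, from 3.53 to 4.65 for *MYH2* and from 2.79 to 10.52 for *MYH1*. In each of the 18 probes the foetuses at 110 and 260 dpc did not overlap, against 33.4% of all probes. All 18 probes were also called in BA alone, with 33.3% of all probes, and in CH alone, with 32.7%. The arrays had been scanned on 3 days, and the direction of every probe was the same within each day and breed that held both stages, although each of these 3 sets had only 1 foetus at one or both stages (at 260 and 110 dpc 1 and 1 in CH, 1 and 2 in BA, and 2 and 1 in CH). The *MYH7* changes were 1.69 to 3.58, 1.83 to 2.74 and 1.64 to 2.86 in these 3 sets, the *MYH2* changes 3.03 to 4.14, 3.56 to 4.43 and 3.73 to 5.29, the *MYH1* changes 2.64 to 10.50, 2.94 to 10.96 and 2.63 to 10.67, and the *MYH3* changes -2.14 to -0.33, -2.08 to -0.37 and -3.49 to -1.21.

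**Figure D1:**
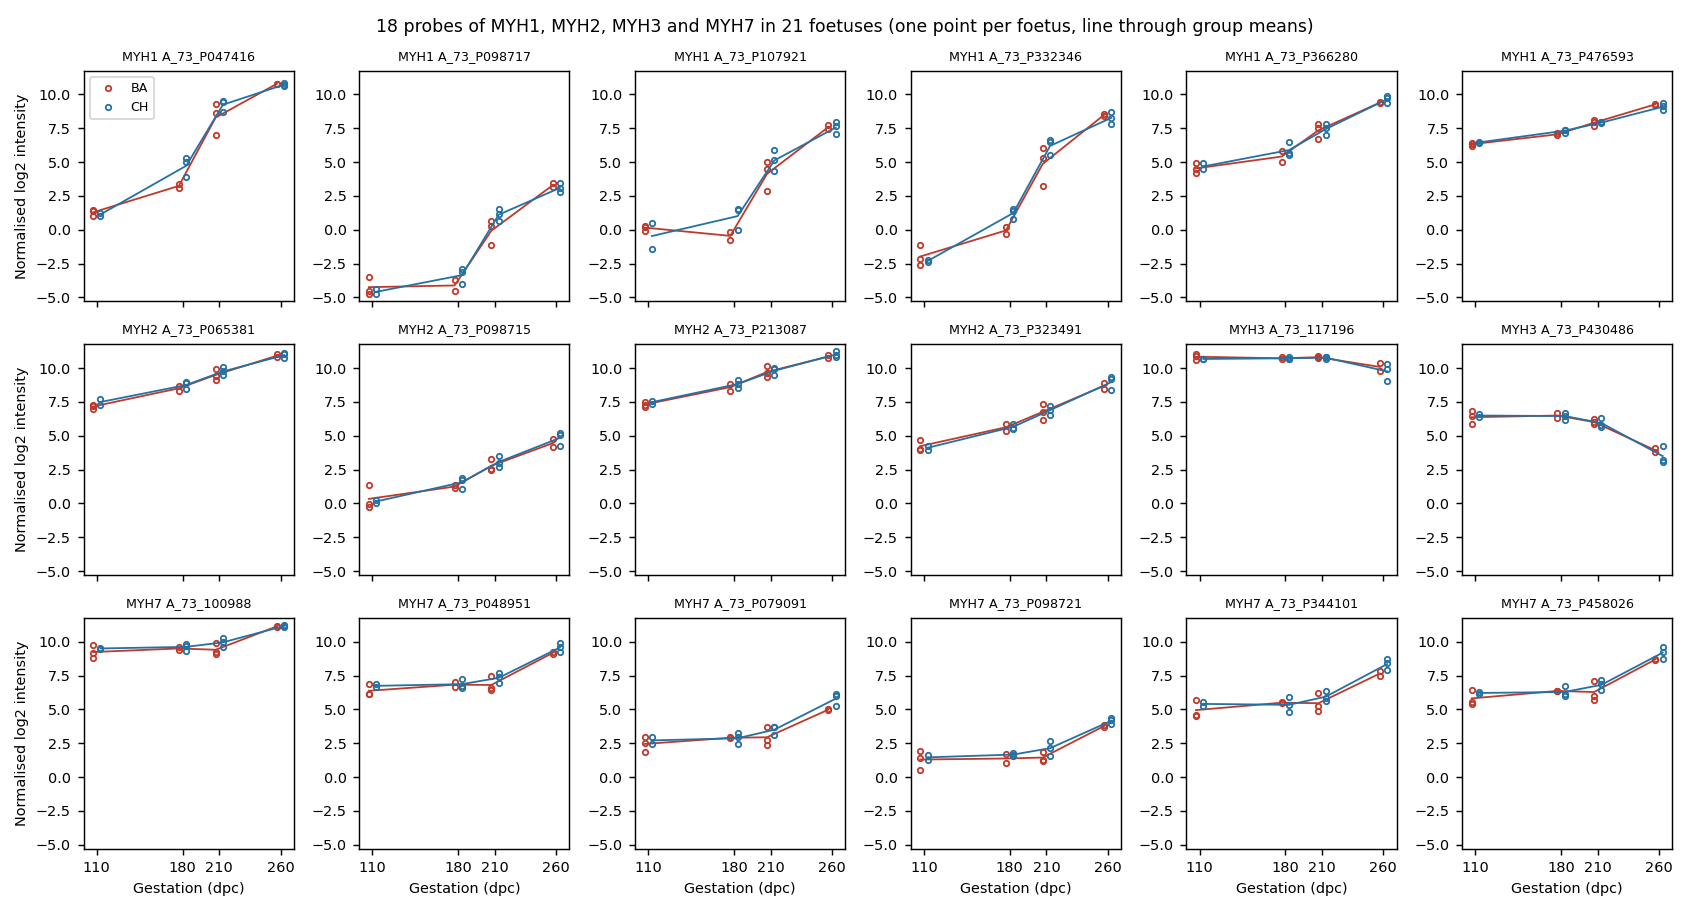
Normalised log2 intensity of each of the 18 probes against gestation in dpc, with 1 point per foetus, BA in red and CH in blue, and lines through the group means. Levels of different probes are not comparable, and the shapes show the *MYH1* probes A_73_P047416, A_73_P107921 and A_73_P332346 with their largest rise from 180 to 210 dpc, *MYH2* rising throughout, *MYH7* rising and *MYH3* falling after 210 dpc.

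The embryonic chain *MYH3* fell late. On probe A_73_P430486 the BA foetuses were at 5.85, 6.43 and 6.83 and the CH foetuses at 6.62 and 6.37 at 110 dpc. At 210 dpc they were at 5.99, 6.20 and 5.84 in BA and 5.82, 6.30 and 5.68 in CH. At 260 dpc they had reached 4.06 and 3.78 in BA and 4.23, 3.03 and 3.23 in CH. The 260 dpc foetuses lay below all others, and those of the 3 earlier stages overlapped. From 210 to 260 dpc the probe fell by 2.26 (SE 0.22, adjusted p = 5.17e-06), which is 4.80-fold. The differences before that were 0.04 (SE 0.235) from 110 to 180 dpc and -0.50 (SE 0.22, adjusted p = 0.277) from 180 to 210 dpc.

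The other *MYH3* probe, A_73_117196, moved less. It was at 10.60, 10.89 and 11.03 in BA and 10.68 and 10.66 in CH at 110 dpc, and at 10.71, 10.91 and 10.79 in BA and 10.64, 10.82 and 10.83 in CH at 210 dpc. At 260 dpc it was at 10.37 and 9.80 in BA and 10.33, 9.05 and 9.90 in CH. All 5 late foetuses were again below the rest, with a fall of 0.86 on the log2 scale from 210 to 260 dpc (SE 0.18, adjusted p = 0.0024). The fall between 110 and 260 dpc differed between the probes by 1.89 (exact permutation within breeds, 100 arrangements, two-sided, p = 0.01, the smallest the design allows, adjusted p = 0.0185 over 37 probe pairs). The bright probe took its value from the scaled-up low-gain scan on 21 of 21 arrays and the other on 0. The part of this in the unequal falls was not tested. Within BA alone the last step of A_73_117196 was -0.72 (SE 0.27) with an adjusted p of 0.12, and its change from 110 to 260 dpc in BA, -0.75 with an adjusted p of 0.0421, was -0.47 (adjusted p = 0.387) without foetus 2 of the BA group at 260 dpc. That call was close to the threshold. Its adjusted p was 0.115 without foetus 3 of BA at 110 dpc, 0.087 without foetus 2 of that group, and 0.0501 to 0.0521 with most of the foetuses of other groups left out one at a time. In CH the change of this probe from 110 to 260 dpc, -0.91 with an adjusted p of 0.0157, had an adjusted p of 0.0804 with slide as a block, 0.0974 with only the stages compared, 0.0809 without foetus 1 of CH at 110 dpc and 0.0734 without foetus 2 of that group.

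The slow chain *MYH7* rose in the last interval. On probe A_73_100988 the foetuses were at 8.79, 9.73 and 9.20 in BA and 9.53 and 9.48 in CH at 110 dpc. They were at 9.59 and 9.42 in BA and 9.67, 9.85 and 9.35 in CH at 180 dpc, and at 9.91, 9.10 and 9.21 in BA and 9.97, 9.59 and 10.31 in CH at 210 dpc. They were at 11.09 and 11.18 in BA and 11.17, 11.23 and 11.11 in CH at 260 dpc. The first 3 stages overlapped and the last stood clear above them. From 210 to 260 dpc the level rose by 1.47 (SE 0.18, adjusted p = 3.88e-05).

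The other *MYH7* probes, A_73_P344101, A_73_P098721, A_73_P048951, A_73_P079091 and A_73_P458026, were likewise highest at 260 dpc. Probe A_73_P344101 was at 4.62, 5.73 and 4.50 in BA and 5.58 and 5.23 in CH at 110 dpc, and still at 6.24, 4.87 and 5.27 in BA and 5.88, 5.62 and 6.34 in CH at 210 dpc. At 260 dpc it was at 7.81 and 7.49 in BA and 8.45, 7.88 and 8.71 in CH, above every earlier foetus. The means of A_73_P048951 at the 4 stages were 6.38, 6.83, 6.81 and 9.17 in BA and 6.74, 6.87, 7.33 and 9.58 in CH. Those of A_73_P079091 were 2.45, 2.90, 2.94 and 4.98 in BA and 2.71, 2.87, 3.50 and 5.79 in CH. Those of A_73_P458026 were 5.82, 6.37, 6.28 and 8.69 in BA and 6.22, 6.29, 6.82 and 9.20 in CH. Over the 6 probes the last step was a rise of 1.47 to 2.39, and 6 of 6 passed. The differences from 110 to 180 dpc were 0.14 to 0.31 (SE 0.19 to 0.30) and those from 180 to 210 dpc 0.12 to 0.34 (SE 0.18 to 0.29), and 0 of 6 passed in either interval. Between 110 and 260 dpc the rise of A_73_100988 was 1.78 and those of the other 5 were 2.59 to 2.93. It differed from 4 of these 5 by 1.03 to 1.15 (exact permutation, adjusted p = 0.0185), and from A_73_P098721 by 0.81 (exact permutation, adjusted p = 0.0673). Of the 10 pairs among the other 5 probes, 0 passed, with differences of at most 0.34. The values of A_73_100988 came from the low-gain scan on 21 of 21 arrays and those of the other 5 probes on 0 to 8, and the part of this in its smaller rise was not tested.

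The fast IIa chain *MYH2* rose in every interval. On probe A_73_P213087 the foetuses were at 7.12, 7.30 and 7.49 in BA and 7.37 and 7.60 in CH at 110 dpc, and at 8.34 and 8.84 in BA and 8.82, 9.10 and 8.53 in CH at 180 dpc. They were at 10.13, 9.34 and 9.66 in BA and 9.98, 9.49 and 9.95 in CH at 210 dpc. At 260 dpc they were at 10.77 and 10.94 in BA and 10.79, 11.25 and 10.95 in CH. No stage overlapped the next. The steps were 1.31 (SE 0.17), 1.05 (SE 0.17) and 1.17 (SE 0.17), with adjusted p-values of 0.000125, 0.00258 and 0.000105.

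Probe A_73_P323491 started at 3.98, 4.03 and 4.69 in BA and 3.96 and 4.26 in CH, and ended at 8.43 and 8.93 in BA and 8.40, 9.17 and 9.33 in CH. Its rise of 4.65 (SE 0.25, 25.2-fold) was the widest of the 4 *MYH2* probes. The others rose by 3.53 (A_73_P213087), 3.61 (A_73_P065381) and 4.41 (A_73_P098715). All 4 probes passed in each of the 3 intervals, with steps of 1.16 to 1.48, 0.99 to 1.52 and 1.17 to 2.00. A_73_P323491 rose more than A_73_P065381 by 1.05 and more than A_73_P213087 by 1.12 (exact permutation, adjusted p = 0.0185 for both), and the other 4 pairs did not pass. On A_73_P098715 foetus 3 of the BA group at 110 dpc lay at 1.36, inside the 180 dpc range of 1.09 to 1.87. The first step of that probe, 1.16 with an adjusted p of 0.0223, was 1.06 to 1.23 with adjusted p-values of 0.0502 to 0.0882 without foetus 2 of BA at 110 dpc, either BA foetus at 180 dpc, either CH foetus at 110 dpc or foetus 2 of CH at 180 dpc. Without foetus 1 of BA at 180 dpc its middle step was 1.46 (adjusted p = 0.0504) and that of A_73_P323491 was 1.06 (adjusted p = 0.0638). With slide as a block, the middle step did not pass for any of the 4 *MYH2* probes, with values of 1.14 to 1.57 and adjusted p-values of 0.0701 to 0.24.

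The fast IIx chain *MYH1* had the largest rises of the 4 genes and the largest disagreement between probes. On probe A_73_P332346 the BA foetuses were at -2.64, -2.14 and -1.16 and the CH foetuses at -2.40 and -2.23 at 110 dpc. At 180 dpc they were at -0.29 and 0.18 in BA and 1.54, 1.41 and 0.76 in CH. At 210 dpc they were at 5.29, 3.26 and 6.03 in BA and 6.60, 5.54 and 6.45 in CH, and at 260 dpc at 8.57 and 8.39 in BA and 8.27, 8.72 and 7.82 in CH. No stage overlapped the next. The rise from 110 to 260 dpc was 10.52 (SE 0.44, adjusted p = 7.05e-11), or 1470-fold in intensity.

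Probe A_73_P047416 took nearly the same path, with a Pearson correlation of 0.996 to A_73_P332346 over the 21 arrays. It was at 1.01, 1.44 and 1.40 in BA and 1.01 and 1.24 in CH at 110 dpc, and at 3.08 and 3.40 in BA and 5.28, 4.98 and 3.91 in CH at 180 dpc. It then reached 8.63, 6.97 and 9.27 in BA and 9.45, 8.73 and 9.54 in CH at 210 dpc, and 10.79 and 10.78 in BA and 10.72, 10.88 and 10.58 in CH at 260 dpc. Its steps were 2.78, 4.78 and 1.99 (SE 0.36, 0.34 and 0.34), so the middle interval, the shortest of the 3, held the largest rise. Its whole rise was 9.55 (SE 0.36, 749-fold).

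Probe A_73_P107921 rose by 7.72 (SE 0.46). It was at 0.24, -0.06 and 0.30 in BA and 0.48 and -1.42 in CH at 110 dpc, and at -0.72 and -0.19 in BA and 1.47, 1.55 and 0.00 in CH at 180 dpc, so these stages overlapped. It then rose by 4.35 (SE 0.44) to 210 dpc and by 2.94 (SE 0.44) to 260 dpc. A_73_P098717 was not well above background in any foetus at 110 or 180 dpc and was well above it in all 11 later foetuses, so its early levels are only limits, and every fitted change of this probe that starts at 110 or 180 dpc rests on signals at background. Taking for the dim group, per array, the higher of its own value and the lowest signal well above background, it was at least 66.8-fold higher at 260 than at 110 dpc in BA (means 3.28 and -4.24, adjusted p = 3.75e-08) and at least 55.8-fold higher in CH (means 3.09 and -4.59, adjusted p = 3.14e-08). From 180 to 210 dpc it was at least 5.53-fold higher in BA (adjusted p = 0.00154) and at least 13.3-fold in CH (adjusted p = 0.000932). These adjusted p-values are those of the fitted changes in limma, which include the background signals, and the limits themselves were not tested.

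These 4 are called the steep *MYH1* probes here, and the remaining ones rose more evenly. A_73_P366280 was at 4.20 to 4.90 over the 5 foetuses at 110 dpc, at 5.03 to 6.48 at 180 dpc, at 6.67 to 7.83 at 210 dpc and at 9.35 to 9.84 at 260 dpc, a rise of 4.91 (SE 0.26, 30.0-fold). Its first step, 1.04 with an adjusted p of 0.0145, was 0.86 (adjusted p = 0.0785) without foetus 2 of BA at 180 dpc and 0.93 (adjusted p = 0.0672) without foetus 2 of CH at 110 dpc. A_73_P476593 was at 6.17, 6.36 and 6.42 in BA and 6.44 and 6.46 in CH at 110 dpc, at 6.97 and 7.13 in BA and 7.40, 7.17 and 7.38 in CH at 180 dpc, and at 7.98, 7.65 and 8.09 in BA and 7.95, 7.86 and 7.94 in CH at 210 dpc. At 260 dpc it was at 9.21 and 9.32 in BA and 9.11, 9.33 and 8.81 in CH. This probe was the tightest of the 6, with stages that did not overlap, and rose by only 2.79 (SE 0.11, adjusted p = 5.38e-11, 6.92-fold). Its steps were 0.80, 0.73 and 1.26 and its last was the largest. The middle step had an adjusted p of 0.0551 with slide as a block and 0.0993 in the authors' value table.

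The rises of *MYH1* probes therefore spanned 7.73 log2 units, from 2.79 to 10.52, in the same 21 foetuses. In the exact permutation test of unequal change, all 10 pairs of the 5 *MYH1* probes other than A_73_P098717 passed at an adjusted p of at most 0.0352, as did 2 of 6 *MYH2* pairs, 1 of 1 *MYH3* pair and 4 of 15 *MYH7* pairs. The 5 pairs with A_73_P098717 were also computed among the 37, but its rise is only a lower limit and nothing is read from them. Over the 21 arrays the correlation of A_73_P476593 with the other 5 *MYH1* probes was 0.940 to 0.974 and with the 4 *MYH2* probes 0.958 to 0.976. These values all share the rise with stage and carry no test. A_73_P476593 came from the low-gain scan on 14 of 21 arrays, A_73_P047416 on 10, A_73_P366280 on 7, A_73_P332346 on 6, A_73_P107921 on 3 and A_73_P098717 on 0, and the part of this in the size of the rises was not tested.

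**Figure D2:**
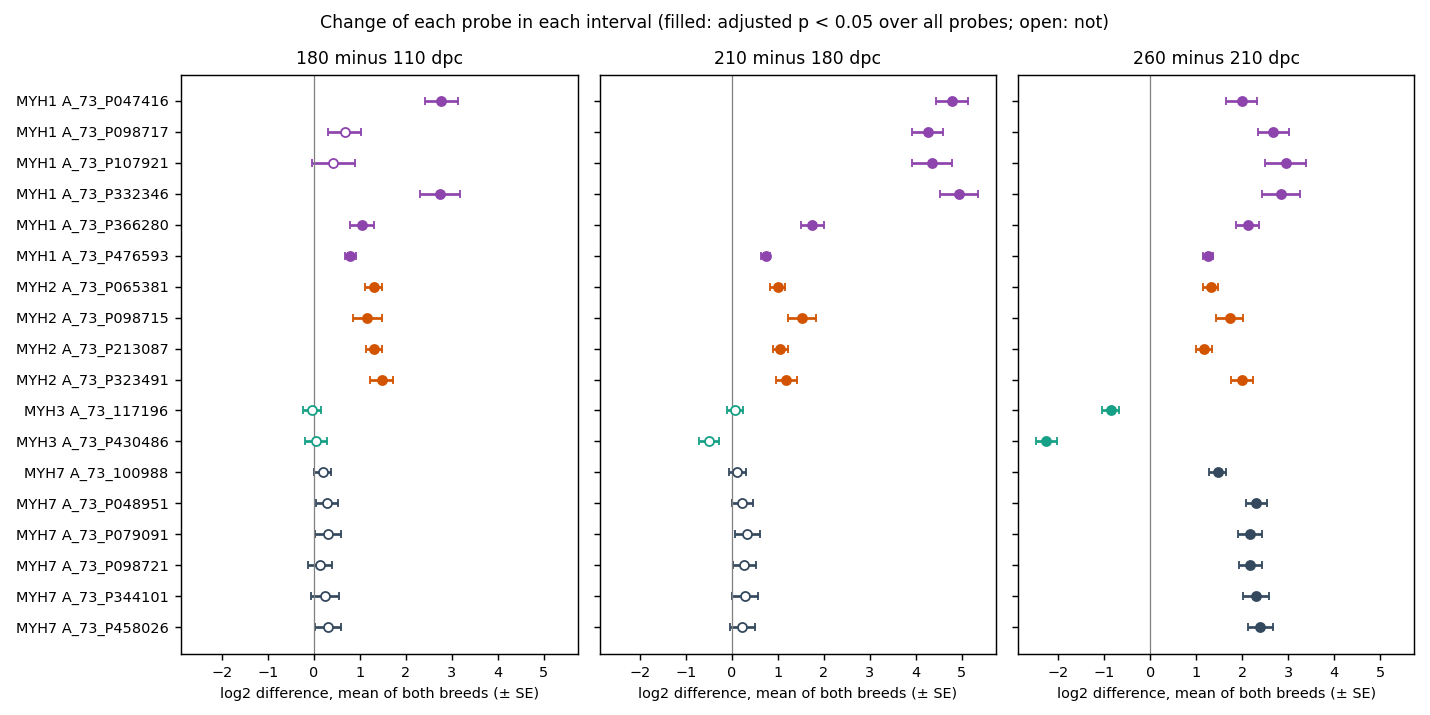
Log2 difference of each of the 18 probes in each interval, as the mean of both breeds with its SE, filled where the adjusted p over all probes was under 0.05. All *MYH1* and *MYH2* probes stand to the right of 0 in every panel, while *MYH7* and *MYH3* probes are filled only in the last.

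By interval, 8 of the 18 probes rose from 110 to 180 dpc (6.53% of all probes rose and 6.63% fell) and 0 fell. They were 4 of *MYH1* and 4 of *MYH2*. From 180 to 210 dpc 10 rose (1.95% of all probes rose and 1.67% fell) and 0 fell, namely all 6 of *MYH1* and all 4 of *MYH2*. From 210 to 260 dpc 16 rose and 2 fell (11.9% and 12% of all probes). Foetuses of successive stages did not overlap in 7 of 18 probes for 110 and 180 dpc (11.8% of all probes), in 10 for 180 and 210 dpc (4.88%) and in 18 for 210 and 260 dpc (17.1%).

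The share of the whole change that had taken place by 210 dpc was larger for every *MYH1* and *MYH2* probe than for any *MYH7* or *MYH3* probe, while the ranges of *MYH1* and *MYH2* overlapped, as did those of *MYH7* and *MYH3*. By 180 dpc the *MYH2* probes had completed 26.4% to 37.1% of their rise on the log2 scale, the *MYH1* probes 5.57% to 29.1%, the *MYH7* probes 5.49% to 11% and the *MYH3* probes -1.64% to 4.17% of their fall. By 210 dpc the shares were 57.1% to 67.0% for *MYH2*, 54.8% to 79.2% for *MYH1*, 15.9% to 22.9% for *MYH7* and -3.47% to 16.8% for *MYH3*. The last interval thus held 77.1% to 84.1% of the *MYH7* rise. With each foetus left out in turn, the share of A_73_P047416 by 210 dpc stayed between 76.6% and 82.6%, that of A_73_P476593 between 53.1% and 57.1%, that of A_73_P213087 between 64.0% and 69.5% and that of A_73_P344101 between 11.7% and 23.8%.

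Within the breeds, all 18 probes were called in at least 1 step within a breed (23.7% of all probes). From 110 to 180 dpc, 5 probes passed in BA (6.47% of all probes) and 6 in CH (5.27%), all of *MYH1* and *MYH2*. The first step of A_73_P047416 was 1.96 in BA (adjusted p = 0.0303) and 3.60 in CH (adjusted p = 0.000522). That of A_73_P332346 passed in CH, at 3.55, and was 1.93 in BA (adjusted p = 0.0801). From 180 to 210 dpc, 7 probes passed in BA (0.841% of all probes) and 4 in CH (0.362%). These were all 6 *MYH1* probes and A_73_P213087 of *MYH2* in BA, and the 4 steep *MYH1* probes in CH, with rises of 4.58 to 5.05 in BA and 4.11 to 4.96 in CH for the steep ones other than A_73_P098717. From 210 to 260 dpc, 17 probes passed in BA (8.75% of all probes) and 18 in CH (17.3%). In that last interval the rises of the steep *MYH1* probes were 2.49 to 3.62 among BA and 1.48 to 2.43 among CH foetuses, and those of the *MYH7* probes 1.73 to 2.41 and 1.21 to 2.40.

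The breeds were compared at each stage, as BA minus CH, to see whether either ran ahead. In limma, 0 of the 18 probes passed at 110 dpc (0.0206% of all probes), 180 dpc (0.0275%), 210 dpc (0.00229%) or 260 dpc (0.0137%), or on average over the stages (0.0733%). At an unadjusted p under 0.05 the counts were 0, 2, 3, 0 and 2, and limma with a trended and robust variance also called 0. At 180 dpc the differences of the steep *MYH1* probes A_73_P047416, A_73_P107921 and A_73_P332346 were -1.48 to -1.29, and A_73_P098717 was not well above background in either breed. The value of A_73_P047416 was -1.48 (SE 0.50, 95% interval -2.56 to -0.41, adjusted p = 0.714), and that of A_73_P332346 was -1.29 (SE 0.62, interval -2.61 to 0.03, adjusted p = 0.871). At 210 dpc the 4 steep probes, all then well above background, had differences of -1.33 to -0.95. Foetus 2 of the BA group was the lowest of that stage on all 6 *MYH1* probes. It was the only BA foetus at 210 dpc from the sire of both BA foetuses at 180 dpc, and the part of sire was not tested. Without this foetus, A_73_P332346 went from -1.33 to -0.53 and A_73_P047416 from -0.95 to -0.29, A_73_P098717 to -0.64 and A_73_P107921 to -0.37. As this foetus was picked for being the lowest, its omission had to raise the BA means. Nothing on the breeds is read from these smaller differences. At 260 dpc the 6 *MYH1* probes were between -0.25 and 0.21, with intervals for A_73_P047416 of -1.02 to 1.13 and for A_73_P476593 of -0.16 to 0.52.

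For the slow chain, the differences of the 6 *MYH7* probes were -0.46 to -0.16 at 110 dpc and -0.29 to 0.16 at 180 dpc. At 210 dpc they were -0.69 to -0.48 (SE 0.25 to 0.38). These probes share 1 transcript and, at 210 dpc, the same 6 foetuses, and are not 6 separate observations. Without foetus 2 of BA the differences at 210 dpc were -0.60 to -0.19. Foetus 1 of BA lay the other way, at 3.71 on A_73_P079091 against 2.39 and 2.74 in the rest of its group. Leaving out foetus 1 would widen that difference, so nothing is read from either omission. At 260 dpc the *MYH7* differences were -0.81 to -0.04. They were -0.81 for A_73_P079091, -0.70 for A_73_P344101 (interval -1.61 to 0.21) and -0.04 for A_73_100988 (interval -0.62 to 0.55). The *MYH3* probes differed by 0.33 and 0.43 at 260 dpc (SE 0.27 and 0.33) and the *MYH2* probes by -0.39 to -0.04. None of these passed. Over the stages, the 18 average differences had a median of -0.29 against 0.01 for all probes, and 0 passed. The probes of 1 gene are not separate observations, and A_73_P098717 was not well above background at 110 and 180 dpc. Foetuses of the breeds did not overlap in 1 probe at 110 dpc (25% of all probes), 4 at 180 dpc (22.5%), 0 at 210 dpc (9.1%) and 3 at 260 dpc (15.9%), and 4 of 18 is a share close to that of all probes. At 260 dpc 3 of 18 is likewise close to the share of all probes. The 4 at 180 dpc were all of *MYH1* and the 3 at 260 dpc all of *MYH7*, with BA below CH in each. No breed difference is read from them, since probes of 1 gene share the same foetuses.

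**Figure D3:**
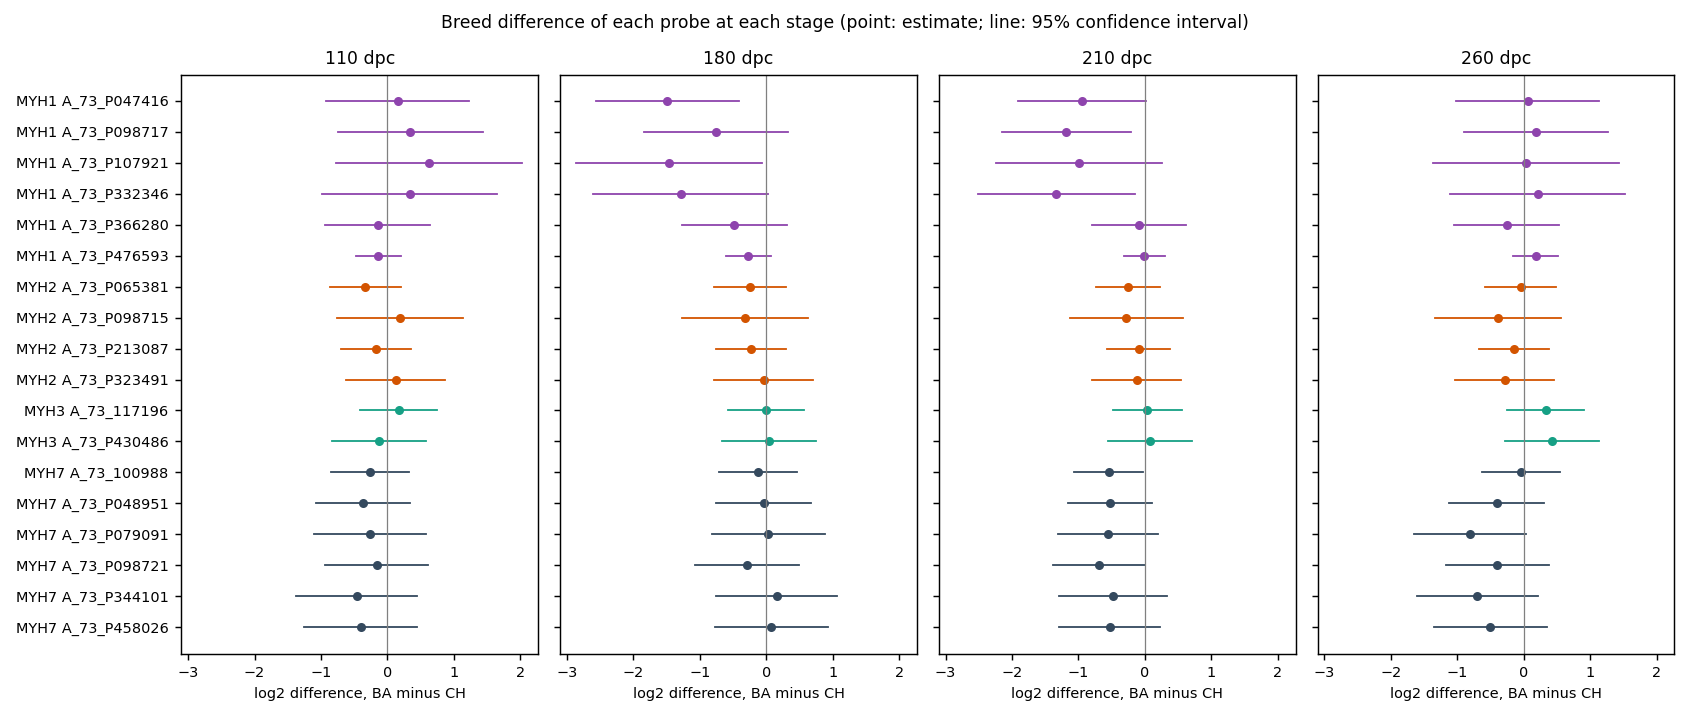
Log2 difference between the breeds, BA minus CH, of each of the 18 probes at each stage, with the estimate as a point and its 95% interval as a line. The steep *MYH1* probes A_73_P047416, A_73_P107921 and A_73_P332346 lie left of 0 at 180 and 210 dpc. The 6 *MYH7* probes do so at 110, 210 and 260 dpc, but no probe passed after adjustment. A_73_P098717 was not well above background at 110 and 180 dpc, so its points there are not measured differences.

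The change between stages was compared between breeds as well. From 110 to 260 dpc, 0 of the 18 probes differed in their change (0.00687% of all probes did), and 0 had an unadjusted p under 0.05. Of the steps, 0 differed from 110 to 180 dpc (0.00229%), 180 to 210 dpc (0.00229%) or 210 to 260 dpc (0%, 0 probes of the whole array), with 2, 0 and 0 at an unadjusted p under 0.05. Any-step calls made up 0.00229% of all probes. The first step of A_73_P107921 differed between BA and CH by -2.09 (SE 0.93), with values of -0.61 in BA and 1.47 in CH. The smallest adjusted p of these tests for the 18 probes was 0.898, and no breed difference in timing was detected.

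Of the other sarcomeric heavy chain genes listed, *MYH8*, which encodes the perinatal chain, had probes here. No probe was named for *MYH4*, *MYH6*, *MYH7B*, *MYH13* or *MYH15* through the annotation used, so these could not be analysed. *MYH8* fell after 210 dpc on all 3 of its probes, by 2.43 (A_73_101126, SE 0.25), 1.92 (A_73_P065371, SE 0.17) and 0.77 (A_73_P065366, SE 0.10). A_73_101126 was at 7.21, 7.63 and 7.54 in BA and 8.43 and 8.32 in CH at 110 dpc, and at 9.49, 9.19 and 8.73 in BA and 8.29, 9.37 and 8.32 in CH at 210 dpc. It ended at 6.30 and 6.94 in BA and 6.89, 6.23 and 5.85 in CH, below every earlier foetus. Before the fall the 3 probes had values of 0.41 to 0.68 from 110 to 180 dpc. That of A_73_P065366 passed (0.41, adjusted p = 0.0209). It did not in the authors' value table (adjusted p = 0.213) or with only the stages compared (0.0505). It was 0.32 without foetus 2 of BA at 180 dpc. The value of A_73_P065371 (0.56, adjusted p = 0.0541) did not pass. It did after quantile normalisation (adjusted p = 0.0388), with normexp (0.0376) and under the filters on level (0.0239) and detection (0.0343). It also did with the replicate block (adjusted p = 0.038) and with a trended and robust variance (0.03). Over the whole period A_73_101126 fell by 1.45 and A_73_P065371 by 1.17, while A_73_P065366 was at -0.15 (adjusted p = 0.303). The embryonic *MYH3* and the perinatal *MYH8* thus both fell in the last interval, in which all probes of *MYH1*, *MYH2* and *MYH7* rose.

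**Figure D4:**
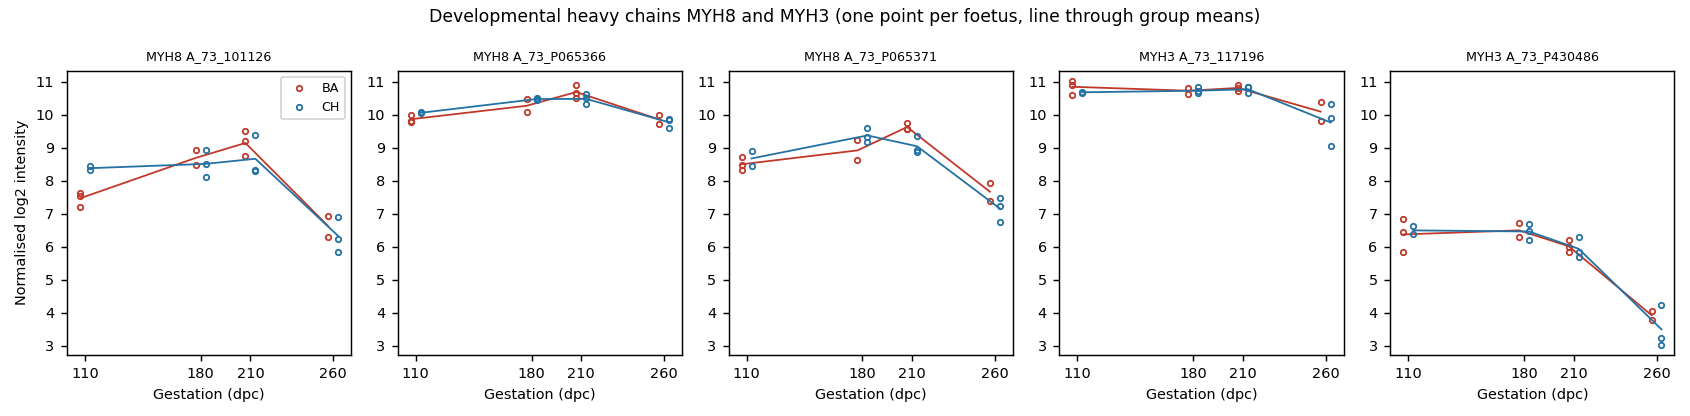
Normalised log2 intensity of the 3 *MYH8* probes and the 2 *MYH3* probes against gestation in dpc, 1 point per foetus, BA in red and CH in blue, with lines through the group means. Levels of different probes are not comparable, and the group means of each probe are lower at 260 than at 210 dpc.

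The partners of the heavy chains were read from lists, with 1 probe a gene, and their counts stand against the 21.2% of all probes that rose and the 22.7% that fell in this comparison. Of 5 myosin light chain genes measured, 3 rose and 1 fell between 110 and 260 dpc, with a median change of 0.64 against 0.09 for all probes. *MYL4*, the embryonic and atrial light chain, fell by 4.21 (SE 0.37, adjusted p = 1.89e-07). Its level, 9.35 in BA and 9.54 in CH at 110 dpc, was 7.46 and 8.10 at 210 dpc and 5.64 and 4.83 at 260 dpc. Its steps in limma were -0.70 (adjusted p = 0.278), -0.97 (adjusted p = 0.168) and -2.55 (adjusted p = 9.33e-05), and only the last passed. The slow light chain genes *MYL6B* and *MYL2* rose by 2.00 (SE 0.23) and 0.75 (SE 0.15), and the fast chain gene *MYL1* by 0.50 (SE 0.11), but after quantile normalisation *MYL1* was at -0.02 and *MYL2* at 0.25 (adjusted p = 0.179), and neither passed in the authors' value table. Probes of *MYL2* differed, as its dimmer probe A_73_P393836 was at 1.53 over the same period. The correlation of *MYL2* given below is that of A_73_P393836. *MYL3*, another slow light chain, was at 0.64 (adjusted p = 0.235).

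Of 9 genes measured for proteins that build or tend the thick filament, 7 rose and 0 fell, with a median of 1.14. The largest rises were 3.19 (SE 0.22) for *TRIM63*, the ubiquitin ligase MuRF1, 2.30 (SE 0.31) for *MYBPH*, a myosin-binding protein, and 2.04 (SE 0.19) for *TRIM54*, a relative of *TRIM63*. Of 16 genes measured that are known to act on fibre type or muscle differentiation, 8 rose and 4 fell, with a median of 0.43, and the share that fell was close to that of all probes. *MAF* rose by 1.67 (SE 0.11), *DIO2*, which activates thyroid hormone, by 1.53 (SE 0.39, well above background on 16 of 21 arrays) and *PPARGC1A*, a regulator of mitochondrial genes, by 1.37 (SE 0.22). *RCAN1*, an inhibitor and target of calcineurin, fell by 1.91 (SE 0.38), *EYA2* by 0.91 (SE 0.31) and the myogenic factor *MYOG* by 0.78 (SE 0.22). With slide as a block *DIO2* was 0.86 (adjusted p = 0.277) and *MYOG* -0.58 (adjusted p = 0.0741), in the authors' value table *DIO2* was 0.26 (adjusted p = 0.61), and *EYA2* was -0.71 (adjusted p = 0.127) without foetus 1 of CH at 110 dpc, -0.93 (0.0544) and -0.89 (0.0688) without foetus 1 and 2 of BA at 260 dpc, and -0.84 (0.0528) without foetus 1 of CH at 260 dpc. The means of *PPARGC1A* at the 4 stages were 3.26, 3.37, 3.77 and 4.39 in BA and 3.08, 3.57, 3.56 and 4.68 in CH.

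Markers of muscle and other cells were counted over the same period, in which 21.2% of all probes rose and 22.7% fell. The lists are short, and counts of 1 or 2 genes are not read as a result. All 4 skeletal muscle markers measured rose, with a median of 2.58. Of the fibroblast markers 0 of 4 rose and 2 fell, of the red cell markers 3 of 4 fell, of the satellite cell and myoblast markers 1 of 2 fell and of the heart markers 1 of 3 fell. Of the endothelial markers 2 of 4 rose and 1 fell, of the smooth muscle markers 1 of 3 rose and 1 fell, and 2 of 4 leukocyte, 2 of 4 Schwann cell and 1 of 3 adipocyte markers rose. On the same linear scale the summed level of the fibroblast list was 1170 to 2130 at 110 dpc and 853 to 1390 at 260 dpc, that of the red cell list 414 to 803 and 149 to 272, that of the satellite cell list 25.8 to 459 and 29.9 to 110, that of the heart list 3.64 to 7.71 and 1.5 to 3.59 and that of the smooth muscle list 264 to 348 and 90.9 to 238. It was 39.6 to 52.0 and 39.3 to 56.6 for endothelium, 9.52 to 14.4 and 13.4 to 15.7 for leukocytes, 19.5 to 26.1 and 42.0 to 86.9 for Schwann cells and 1.19 to 9.59 and 1.78 to 28.7 for adipocytes. In the heart list *NPPA* and *NPPB* were not well above background on any array, so its sum is partly background. The part of these cells in the heavy chain changes was not tested.

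The genes most like each heavy chain were sought over the 21 arrays by Pearson correlation among 10124 other named genes, with no test, since all share the change with stage. For every one of the 6 *MYH7* probes the first gene was *TNNC1*, the slow and cardiac troponin C, at 0.966 to 0.987, and *TNNT1*, the slow troponin T, was among the first 5. After *TNNC1* and *TNNT1* (0.964), A_73_100988 was closest to *MYL6B* (0.957), *MYL2* (0.951) and *CD164L2* (0.943), and A_73_P344101 to *ATP2A2* (0.967), the slow calcium pump, *COQ8A* (0.956), *ACAT1* (0.953) and *TNNT1* (0.952). The steep *MYH1* probe A_73_P332346 was closest to *ETNPPL* (0.979), *EEF1A2* (0.977), a translation elongation factor of muscle and nerve, *IL4R* (0.975), *DDO* (0.974) and *ACTN4* (0.974). The even probe A_73_P476593 was instead closest to *GAPDH* (0.988), the glycolytic enzyme, *GAPDHS* (0.986), *ACTN4* (0.985), *MBNL1* (0.985) and *LOC617654* (0.983).

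For *MYH2*, A_73_P213087 was closest to *CLCN1* (0.988), the muscle chloride channel, *DDO* (0.986), *PGAM2* (0.986), the muscle phosphoglycerate mutase, *ACTN4* (0.984) and *PARVB* (0.984). A_73_P323491 was closest to *ACADVL* (0.989), an enzyme of fatty acid oxidation, *COX7A1* (0.986), a respiratory chain subunit of muscle, *AIFM1* (0.986), *MYOT* (0.985) and *CRAT* (0.984). For *MYH3*, A_73_P430486 was closest to *PDLIM4* (0.969), *GPC3* (0.968), *DBX1* (0.968), *MAGED1* (0.967) and *CCDC141* (0.966). The values of A_73_117196 were lower, with *KLHL42* at 0.888, *GLI1* at 0.872, *OLFML3* at 0.870, *LMF2* at 0.866 and *THSD1* at 0.865. Among the first 5 genes, *ACTN4* was shared by both *MYH1* probes named and *TNNC1* and *TNNT1* by both *MYH7* probes. The pairs of *MYH2* and of *MYH3* probes shared no gene. Many of these correlations lie close together, so nothing is read from the difference in neighbours.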

How the data were processed

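Muscle RNA of each of the 21 foetuses was hybridised to a single-colour bovine oligonucleotide array. Spot intensity had been read by the authors with Agilent Feature Extraction 10.7, as the submitters' processing notes say. The deposited intensities were detrended and not scaled between arrays, and bright spots come from a second scan at low gain, scaled up. The table of values that the authors deposited holds log2 numbers. Of its 649670 values, 99.98% differed by at most 0.01 from log2 scanner intensity. Its medians per array were 8.04 to 8.82.

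Control spots and 258 outlier spot values were dropped before the spots of each probe were averaged. Each array's 75th percentile was subtracted on the log2 scale and 2.69 was added. Each array's number of probes above background limits the precision, and faint probes have only bounds. Probes were named through accessions in the annotation of ARS-UCD2.0, which named 26628 of 43653 probes. Group means of the 8 breed and stage groups were fitted to all probes with limma 3.58.1 in R 4.3.3, with Benjamini-Hochberg adjustment over all probes and calls at an adjusted p under 0.05. Residual degrees of freedom were 13 and prior degrees of freedom 2.12. Unequal change of probes was tested by exact permutation of the stages within breeds. The fit was tested on simulated data.

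The text names all probes of the 4 genes, the other heavy chain genes with a probe, up to 3 genes of each list in each direction by size of change, and the 5 genes most correlated with the brightest and the widest-ranging probe of each gene. *MYL3* was added after its value was seen. A list is read by the brightest probe of each gene. The members and lists were chosen with earlier results of these data known.

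Alternatives were quantile normalisation, the array median, normexp with offset 50, the authors' table, filters on level and detection, sex, slide or replicate number in the model, a trended and robust variance, the stages compared alone and each array left out. Scan day was added after seeing the data. Replicate numbers do not pair the foetuses.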

Additional observations from a re-analysis of the deposited data

How the results depend on the processing

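The breed comparisons called 0 of the 18 probes under every alternative run. The counts of probes changed from 110 to 260 dpc and from 210 to 260 dpc stayed at 15 to 18, with 15 where a filter on level kept only 15 of the 18 probes. With slide as a block, the probes called from 180 to 210 dpc fell from 10 to 5, those lost being the 4 *MYH2* probes and A_73_P476593 of *MYH1*. Leaving out 1 array gave 18 for 110 to 260 dpc, 6 to 8 for 110 to 180 dpc, 8 to 10 for 180 to 210 dpc, 18 for 210 to 260 dpc, 17 to 18 in BA and in CH, 18 for any step within a breed and 0 for each breed comparison. It gave 0 for the other heavy chains list, 4 for the light chains, 7 for the thick filament partners, 10 to 13 for the regulators and 18 to 21 for unequal probe pairs, of 37. A lone array left in a group is assumed to vary like the other groups. The other heavy chains list, *MYH8* on its brightest probe, had 1 call after quantile normalisation, normexp or in the authors' table, and the light chains list 2 in place of 4 after quantile normalisation or in the authors' table. *MYL1* (A_73_104721) was at -0.0156 after quantile normalisation. The causes were not tested. The median change of all probes from 110 to 260 dpc was 0.09 as reported, 0.02 after quantile normalisation, 0.19 with the array median, 0.22 with normexp and -0.37 in the unscaled authors' table, and changes are relative to these.

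With the replicate block, 18 probes were again called from 110 to 260 dpc, and no count moved by over 1.5 times. Arrays with the same replicate number had a median correlation of -0.01 (66 pairs) against 0.0059 for other numbers (126 pairs), so the samples share only a number. In BA, the change of A_73_117196 from 110 to 260 dpc was -0.72 with an adjusted p of 0.0676 in the replicate block. Apart from *MYL1*, only steps that did not pass changed sign. From 110 to 180 dpc A_73_P430486 was -0.00019 after quantile normalisation. With 1 array left out, its range was -0.0861 to 0.159, that of A_73_P098721 -0.0424 to 0.316, that of A_73_117196 -0.0946 to 0.0124 and that of A_73_P107921 -0.0456 to 0.905. From 180 to 210 dpc A_73_117196 was -0.00193 with normexp and -0.079 with slide as a block, and A_73_100988 was -0.00866 to 0.209 with 1 array left out. The cause was not tested. Within the slide that held both end stages, 1 BA foetus at 110 and 1 CH foetus at 260 dpc, all 18 probes kept their direction.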
